A study of Mus musculus with 12 samples.

Results

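The troponins of fast and slow muscle fibres are described here across tumour-bearing and control mouse muscle. For open chromatin, they are described across cultured mouse muscle cells given tumour-conditioned medium and their controls. The members were fixed by name as Tnnt1, Tnni1 and Tnnc1 (slow), Tnnt3, Tnni2 and Tnnc2 (fast) and Tnnt2 (cardiac), which are 7 of the 20194 genes in the RNA table. All 7 passed the filter of a mean of at least 1 FPKM (fragments per kilobase of exon and M reads, M being 10 to the power of 6) and were tested. In the chromatin table, every peak annotated to one of these genes was taken, which gave 8 of 38244 peaks.

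Troponin is the calcium switch of striated muscle. It sits on the actin filament as a complex of troponin C, which binds calcium, troponin I, which blocks the interaction of actin with myosin, and troponin T, which anchors the complex to tropomyosin. Fast and slow fibres use different genes for each subunit. Tnnc1 serves both slow skeletal muscle and heart, while cardiac troponin T, encoded by Tnnt2, is made in the heart and transiently in developing skeletal muscle.

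PolyA RNA came from muscle of C57BL/6 mice, where 3 libraries followed a subcutaneous injection of 500000 Lewis lung carcinoma (LLC) cells and 3 an injection of PBS. Tissue was taken on day 22, and the labels do not name the muscle, so its fibre type is not known from them. ATAC-seq, which reads out open chromatin through the cuts of the Tn5 transposase, came from C2C12, a mouse muscle cell line with the genotype label C3H. Of its libraries, 3 followed 24 hours of conditioned medium from C26 (Colon-26), a colon carcinoma line of the mouse, and 3 were controls. The treatment label of the controls reads only Control, and they are called control medium here. The titles call the cultures myotubes and the cell type field calls them myoblasts. No label ties a library to its own animal or culture, and C2C12 wells were set up in triplicate, so the p-values measure the spread between these libraries, which may be technical.

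Each RNA library held 17.0 to 20.1 M tags and each ATAC library 10.1 to 18.2 M. In PBS muscle 1 genes with at most 1100 bp of exon were lower against long genes of at least 4000 bp than in the other libraries, by a log2 difference of -0.27, where the other 5 libraries lay between -0.10 and 0.24. Summed FPKM of 6 skeletal muscle markers (Ckm, Acta1, Des, Ttn, Mb and Ryr1) ran from 26209 to 29085 in LLC muscle and from 22105 to 27668 in PBS muscle. Neutrophil and marrow markers summed to 178.5 FPKM in LLC muscle 3 and 121 in PBS muscle 1, against 5678 to 11429 in the other 4 libraries. Erythroid markers summed to 2228 to 7530 FPKM in LLC muscle and 1026 to 30293 FPKM in PBS muscle, bone markers to 0.169 to 32.2 FPKM in LLC and 0.272 to 127.9 FPKM in PBS, and smooth muscle markers to 66.1 to 91.8 FPKM in LLC and 64.5 to 77.5 FPKM in PBS. Tendon markers summed to 39.2 to 256.5 FPKM in LLC muscle and 291 to 428 in PBS muscle, and 6 of 6 tested were lower in LLC. Epidermal markers summed to 1120, 48.7 and 456 FPKM in LLC muscle and 0.452, 4.79 and 78.5 FPKM in PBS muscle, and Krt14, Krt5 and Krt1 were at 0 in PBS muscle 1. In bulk RNA, fewer cells of a type and less RNA per cell cannot be told apart, and the part of these marker levels in the troponin values was not tested.

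The proximal promoters of the slow genes, whose RNA went up and down together over the 6 libraries, are printed first, with that of Tnnc2 as a fast gene for comparison. Each sequence holds the 250 bases before the annotated transcription start, 5′ to 3′, from RefSeq in the build GRCm38.p6. The RefSeq windows matched 5 of the 7 members by symbol, and for 4 of these a window ends at the start of the transcript in the RNA table. Capitals mark matches to the E-box CANNTG, which MyoD and related factors can bind, to CATTCC, the MCAT motif that TEAD factors can bind and whose reverse complement reads GGAATG, and to TATANA, the core of the box that positions the start of transcription at many genes. Matches were sought on both strands.
Tnnt1, chr7:4515976-4516225, minus strand: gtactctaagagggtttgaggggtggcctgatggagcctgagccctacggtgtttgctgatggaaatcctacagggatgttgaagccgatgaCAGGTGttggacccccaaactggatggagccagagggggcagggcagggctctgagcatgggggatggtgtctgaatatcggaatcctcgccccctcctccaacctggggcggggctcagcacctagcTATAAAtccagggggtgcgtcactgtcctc
Tnni1, chr1:135799171-135799420, plus strand: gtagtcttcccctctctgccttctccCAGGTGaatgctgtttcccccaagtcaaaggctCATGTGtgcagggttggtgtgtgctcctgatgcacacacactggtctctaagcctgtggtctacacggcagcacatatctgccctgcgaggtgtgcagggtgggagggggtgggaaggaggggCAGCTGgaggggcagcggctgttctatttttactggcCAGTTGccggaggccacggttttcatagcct
Tnnc1, chr14:31208062-31208311, plus strand: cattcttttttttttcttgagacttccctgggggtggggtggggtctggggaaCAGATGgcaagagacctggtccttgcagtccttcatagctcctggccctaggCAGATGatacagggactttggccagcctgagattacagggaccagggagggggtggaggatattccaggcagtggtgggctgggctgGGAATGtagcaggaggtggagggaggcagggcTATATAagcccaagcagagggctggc
Tnnc2, chr2:164779735-164779984, minus strand: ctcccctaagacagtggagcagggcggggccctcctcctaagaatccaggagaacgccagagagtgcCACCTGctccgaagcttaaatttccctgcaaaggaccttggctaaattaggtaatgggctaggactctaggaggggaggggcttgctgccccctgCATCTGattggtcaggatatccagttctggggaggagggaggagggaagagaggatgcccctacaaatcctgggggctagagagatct

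Tnnt1 held 1 E-box, which began at base -158 from the start, and a TATANA match at -30. Tnni1 held 4 E-boxes, at -224, -191, -68 and -31, and no TATANA match in this window. Tnnc1 held E-boxes at -197 and -145, the only MCAT match of the 4 windows at -58, and a TATANA match at -26. Tnnc2 held E-boxes at -183 and -88 and no TATANA match. Of all 32851 promoter windows of this length in the table, 66.2% held an E-box, 12.6% an MCAT match and 22.6% a TATANA match. No match to the AP-1 sequence TGANTCA or to the MEF2 and CArG-box motifs was found in the 4 windows, and 6.75%, 2.92% and 1.47% of all windows held one. These matches describe letters only, and the windows carry no measurement of factor binding.

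The RNA levels came next, and the question was whether the balance of slow and fast troponins differed in tumour-bearing mice. The slow trio averaged about 4 times higher in LLC than in PBS muscle, while the fast trio differed by at most 1.27 times, and none of the 7 genes passed the threshold of an adjusted p of 0.05. Across the whole table limma on log2(FPKM + 1) called 0 of 12981 genes in either direction (0%), and edgeR on recovered reads also called 0. At an unadjusted limma p under 0.05, 755 genes were higher in LLC (5.82%) and 236 lower (1.82%); edgeR gave 644 (4.96%) and 288 (2.22%). At that unadjusted threshold 3 of the 7 troponins, the slow trio, were higher, and none was lower.

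Tnnt1, slow skeletal troponin T, lies on the minus strand at chr7:4504570-4515975 (mm10, transcript NM_001277904, 979 bp of exon). It had 159, 97.6 and 43.1 FPKM in LLC muscle 1 to 3, against 44.9, 13.5 and 13.03 FPKM in PBS muscle 1 to 3. LLC muscle 1 and 2 lay above every PBS library, and LLC muscle 3 lay just below PBS muscle 1. The group means were 99.8 ± 57.8 FPKM in LLC and 23.8 ± 18.3 FPKM in PBS (SD, n = 3 each), a ratio of 4.19. The log2 difference was 2.07 (SE 0.65) with a limma p of 0.0197 and an adjusted p of 0.506.

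Tnni1, slow skeletal troponin I, lies on the plus strand at chr1:135799421-135810989 (transcript NM_021467, 1075 bp of exon). It had 75.1, 70.0 and 28.4 FPKM in LLC muscle 1 to 3, against 36.1, 4.76 and 3.33 FPKM in PBS muscle 1 to 3. PBS muscle 1 was 7.36 times the mean of the other PBS libraries and above LLC muscle 3, so the groups overlapped. The log2 difference was 2.47 (SE 0.89), with a limma p of 0.0324 and an adjusted p of 0.585. With edgeR it was 1.78 and the unadjusted p was 0.149.

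Tnnc1, troponin C of slow muscle and heart, lies on the plus strand at chr14:31208312-31211729 (transcript NM_009393, 713 bp of exon). It had 130.5, 94.5 and 42.3 FPKM in LLC muscle 1 to 3, against 48.5, 7.89 and 9.31 FPKM in PBS muscle 1 to 3. The order of the libraries was nearly that of Tnnt1, with LLC muscle 3 just below PBS muscle 1. The means of 89.1 ± 44.4 FPKM in LLC and 21.9 ± 23.04 FPKM in PBS gave a ratio of 4.07, and the log2 difference was 2.30 (SE 0.77, adjusted p = 0.541 with limma). With edgeR the unadjusted p was 0.0900, so of the slow trio Tnnt1 alone was under 0.05 with both tools.

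**Figure D1:**
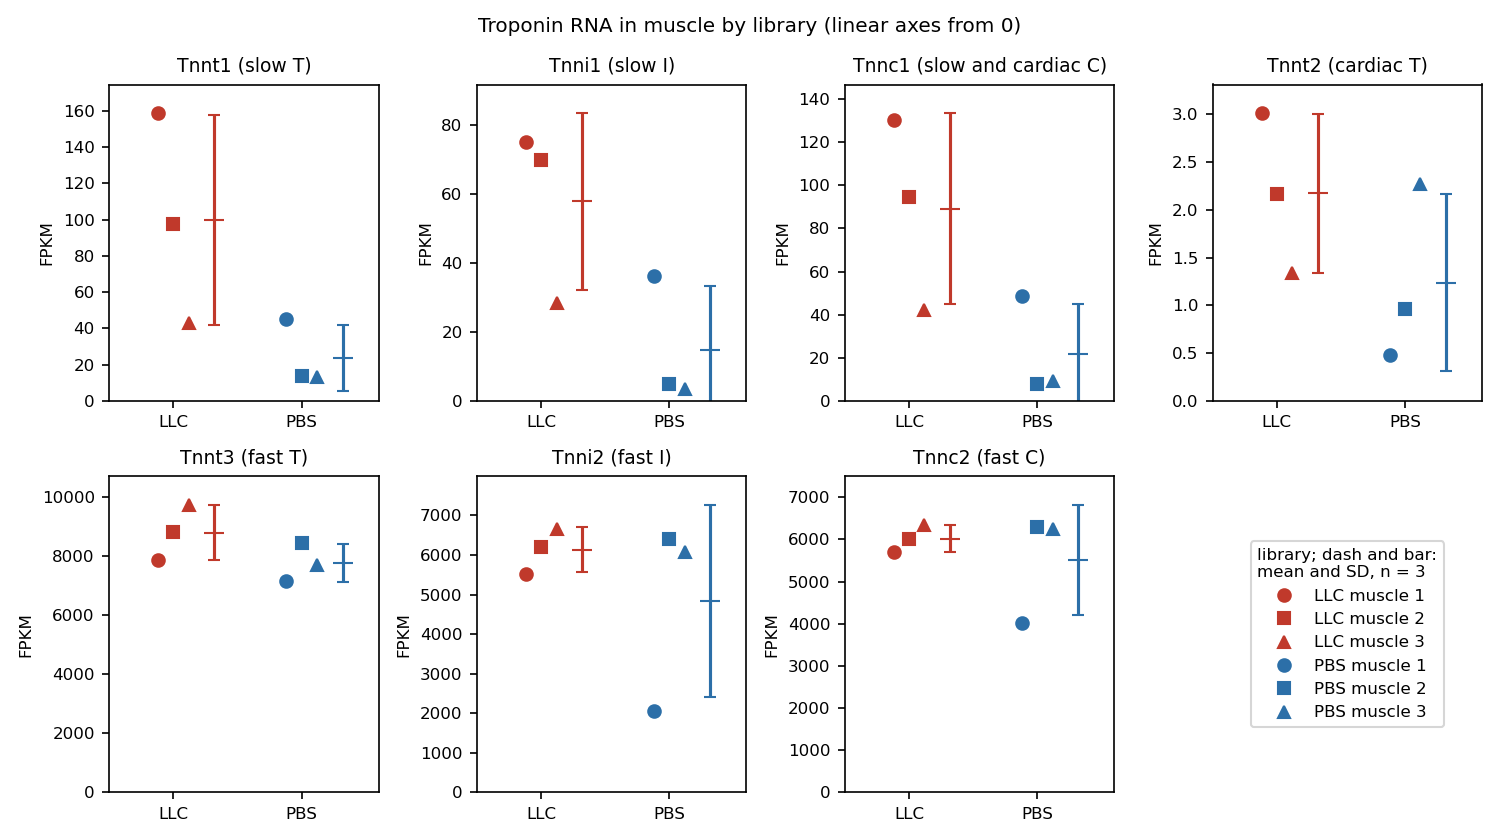
RNA level (FPKM, linear axes from 0) of the 7 troponin genes in the 3 LLC and 3 PBS muscle libraries, with the mean and SD of each group as a dash and bar (lower ends of some SD bars fall below 0 and are cut off at the axis). PBS muscle 1 (blue circle) is the highest PBS library for Tnnt1, Tnni1 and Tnnc1 and the lowest of all 6 libraries for Tnnt3, Tnni2 and Tnnc2.

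Tnnt3, fast skeletal troponin T, was the most abundant troponin, at 7845, 8806 and 9721 FPKM in LLC muscle 1 to 3, against 7152, 8428 and 7696 FPKM in PBS muscle 1 to 3. It ranked between place 3 and place 7 of all 20194 genes in every library. LLC muscle 2 and 3 lay above every PBS library, and LLC muscle 1 lay among them. The means were 8790 ± 938 FPKM in LLC and 7759 ± 640 FPKM in PBS (log2 difference 0.18, SE 0.17, limma adjusted p = 0.9998). Tnnt3 lies at chr7:142498836-142516009 on the plus strand and overlaps Prr33 on the other strand, and since reads of both strands were counted the genes cannot be separated where they overlap. Prr33 was listed at 50.2 to 57.4 FPKM in LLC muscle and 47.4 to 69.6 FPKM in PBS muscle.

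Tnni2, fast skeletal troponin I, lies before Tnnt3 at chr7:142441816-142444410 on the same strand, with Lsp1 between them. It had 5521, 6211 and 6653 FPKM in LLC muscle 1 to 3, against 2048, 6397 and 6083 FPKM in PBS muscle 1 to 3. PBS muscle 1 stood far below the other 5 libraries, which overlapped. The log2 difference was 0.51 (SE 0.47) with all 6 libraries and -0.03 without PBS muscle 1, and neither passed the threshold (limma adjusted p = 0.9998 with all 6).

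Tnnc2, fast skeletal troponin C, lies at chr2:164777162-164779734 on the minus strand. It had 5710, 6010 and 6338 FPKM in LLC muscle 1 to 3, against 4009, 6304 and 6236 FPKM in PBS muscle 1 to 3. PBS muscle 1 was again the lowest, and the log2 difference of 0.15 (SE 0.23, limma adjusted p = 0.9998) became -0.06 without it. The fast genes were tested with 93214 to 376773 read ends per library except Tnni2 in PBS muscle 1, which had 49780, so counting error was small beside the spread between libraries.

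Tnnt2, cardiac troponin T, lies at chr1:135840861-135852261 in the transcript used here and was near the floor of the filter. It had 3.01, 2.16 and 1.34 FPKM in LLC muscle 1 to 3, against 0.484, 0.965 and 2.27 FPKM in PBS muscle 1 to 3, from 18 to 118 read ends per library. The groups overlapped, and the libraries followed an order of their own, with PBS muscle 3 above LLC muscle 2 and 3. The log2 difference was 0.55 (SE 0.35, limma adjusted p = 0.937). Cardiac troponin I, Tnni3, which lies 2330 bp from Tnnt1, stayed at 0.341 to 0.857 FPKM in LLC muscle and 0.416 to 0.673 FPKM in PBS muscle and was below the filter. Cardiac markers in the table, Tnni3 included, summed to 1.36 to 1.503 FPKM in LLC muscle and 0.831 to 0.894 FPKM in PBS muscle.

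Since FPKM is per length, the slow share of each subunit, slow over slow plus fast FPKM, sets the level of one gene against its counterpart within a library. For troponin T it was 1.98%, 1.10% and 0.442% in LLC muscle 1 to 3, against 0.625%, 0.160% and 0.169% in PBS muscle 1 to 3. For troponin C it was 2.23%, 1.55% and 0.663% in LLC muscle 1 to 3, against 1.20%, 0.125% and 0.149% in PBS muscle 1 to 3. The troponin T share averaged 1.17% ± 0.773 in LLC and 0.318% ± 0.266 in PBS, and the troponin C share 1.48% ± 0.788 in LLC and 0.490% ± 0.611 in PBS (SD, n = 3 each). For both, LLC muscle 3 lay below PBS muscle 1, so the groups overlapped. For troponin I the highest share was in a PBS library, with 1.34%, 1.11% and 0.426% in LLC muscle 1 to 3, against 1.73%, 0.0744% and 0.0547% in PBS muscle 1 to 3. In PBS muscle 1 Tnni1 was the highest of the PBS libraries while Tnni2 was the lowest, and each raises the share. The troponin I share averaged 0.960% ± 0.477 in LLC and 0.621% ± 0.963 in PBS. Slow RNA did not exceed 2.23% of a subunit in any of the 6 libraries.

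**Figure D2:**
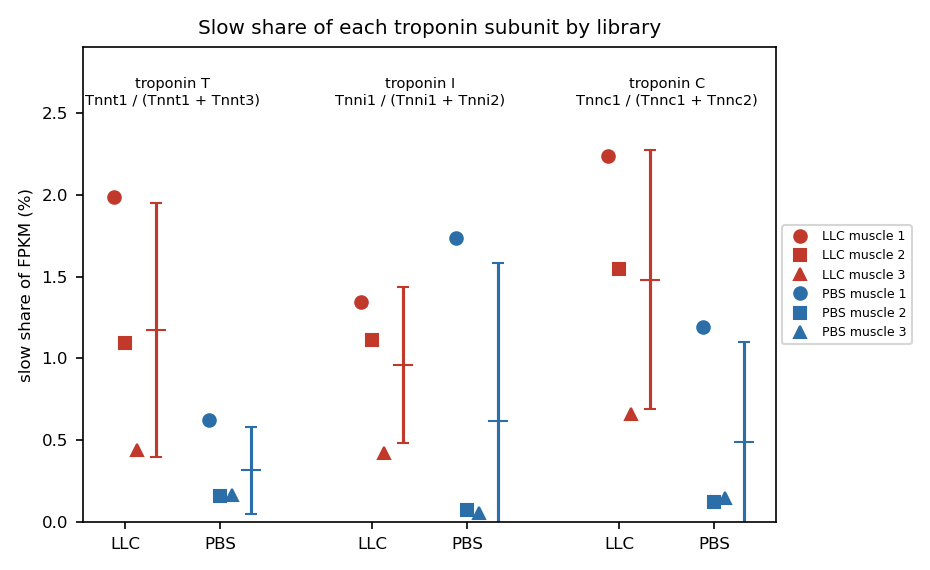
Slow share of each troponin subunit (slow over slow plus fast FPKM, in percent) in the 3 LLC and 3 PBS muscle libraries, with the mean and SD of each group as a dash and bar. PBS muscle 2 and 3 lie between 0.0547% and 0.169% for all 3 subunits, while PBS muscle 1 lies between 0.625% and 1.73%.

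The ratio between subunits of a fibre type varied among the libraries. Tnni1 stood at 0.473, 0.717 and 0.659 of the Tnnt1 level in LLC muscle 1 to 3, against 0.804, 0.353 and 0.256 of it in PBS muscle 1 to 3. Tnnc1 stood at 0.823, 0.969 and 0.980 of the Tnnt1 level in LLC muscle 1 to 3, against 1.08, 0.585 and 0.714 of it in PBS muscle 1 to 3. Tnni2 stood at 0.704, 0.705 and 0.684 of the Tnnt3 level in LLC muscle 1 to 3, against 0.286, 0.759 and 0.790 of it in PBS muscle 1 to 3. PBS muscle 1 was thus the library with the lowest ratio of fast troponin I to fast troponin T, and the other 5 lay between 0.684 and 0.790. Over the 6 libraries Pearson's r of log2(FPKM + 1) was 0.969 to 0.988 between the slow genes and 0.994 between Tnni2 and Tnnc2, but 0.709 and 0.695 between Tnnt3 and these. These correlations describe 6 libraries, of which PBS muscle 1 was the lowest for each fast gene and in place 3 of 6 for each slow gene. The 7 troponins together took 4.93%, 4.94% and 5.93% of all FPKM in LLC muscle 1 to 3, against 3.82%, 4.91% and 4.15% in PBS muscle 1 to 3.

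PBS muscle 1 moved several of these values, which are therefore given with and without it. Tnni1, Tnnc1 and Tnnt1 were 7.36, 5.16 and 3.22 times the mean of PBS muscle 2 and 3 there, and without this library their log2 differences were 3.44, 3.09 and 2.64. Without PBS muscle 1 and LLC muscle 3, a pair chosen after seeing the data, these were 3.88, 3.55 and 3.14 (limma adjusted p = 0.0668, 0.0668 and 0.0832). Tnni2, Tnnc2 and Tnnt3 stood at 0.328, 0.639 and 0.887 of that mean, the lowest of all 6 libraries for each. Of the 14 genes on the fast-fibre list, 7 were highest of all 6 libraries in PBS muscle 1. Among them was Pvalb, the calcium buffer parvalbumin, at 1.43 times the mean of the other PBS libraries. Casq1, the fast-fibre calsequestrin, stood at 1.34 times and Myl1, a fast myosin light chain, at 1.93 times that mean. High values there were not particular to the fast list, since 7 of 14 other thin filament genes and 12 of 21 fibre type regulators were also highest. On the slow-fibre list this held for 1 of 14 genes, and for 0 of 9 genes of embryonic, regenerating or denervated muscle. The share over all genes was not counted. On the fast-fibre list, Myh2 and Myh1 were the lowest of all 6 libraries in PBS muscle 1. These myosin heavy chains stood at 0.584 and 0.417 times the mean of the other PBS libraries, and Myh1 was picked after its value was seen. The fast troponins have 684 to 966 bp of exon and so belong to the short genes that were low in PBS muscle 1. The slow troponins, at 713 to 1075 bp, are also short by this measure but were higher there than in PBS muscle 2 and 3. The part of gene length in these values was not tested.

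The other contractile genes were read from lists chosen with earlier results of these data known. Whether each gene on the slow-fibre list is confined to slow fibres was not tested. Of the 15 genes on it, which exclude the troponins, 14 were tested, and all 14 were above 0 in LLC against PBS. At an unadjusted limma p under 0.05, 8 of them were higher and 0 lower (5.82% and 1.82% of all genes), and 0 passed the adjustment. Their median log2 difference was 1.06, against 0.01 over all genes tested, and 7 of the 14 did not overlap between the groups, where 9.50% of all genes did not overlap and were higher in LLC and 3.94% did not overlap and were lower. Myh7, the slow myosin heavy chain, had 84.0, 56.5 and 27.8 FPKM in LLC muscle 1 to 3, against 25.9, 5.14 and 3.36 FPKM in PBS muscle 1 to 3 (log2 difference 2.54, limma adjusted p = 0.489). As with the slow troponins, PBS muscle 1 was the highest PBS library, here just below LLC muscle 3.

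Lmod2, which lengthens thin filaments, did not follow that order, with 67.9, 114.7 and 79.7 FPKM in LLC muscle 1 to 3, against 29.1, 33.5 and 35.5 FPKM in PBS muscle 1 to 3 (log2 difference 1.36, limma adjusted p = 0.168). Ankrd2, a stretch-responsive protein of slow muscle, had 68.2, 219 and 136 FPKM in LLC muscle 1 to 3, against 23.3, 25.8 and 22.8 FPKM in PBS muscle 1 to 3 (log2 difference 2.36, adjusted p = 0.203). Csrp3, the muscle LIM protein of the Z-disc, and Actn2, the Z-disc cross-linker, likewise had PBS libraries close together and below every LLC library, with log2 differences of 2.07 (adjusted p = 0.214) and 0.73 (adjusted p = 0.187). Casq2, the calsequestrin of heart and slow muscle, averaged 19.5 ± 4.41 FPKM in LLC and 10.5 ± 3.47 FPKM in PBS (adjusted p = 0.527). PBS muscle 1 therefore stood apart from the other PBS libraries in Myh7 and the slow troponins but hardly in Lmod2, Ankrd2, Csrp3 and Actn2, at 0.850, 0.963, 0.898 and 1.13 times the mean of PBS muscle 2 and 3. Lmod2, Actn2, Ankrd2 and Csrp3 also had the smallest limma p-values on the slow-fibre list and no overlap between the groups.

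The fast-fibre list of 14 genes had 8 above and 6 below 0, with a median log2 difference of 0.06. At an unadjusted limma p under 0.05, 1 was higher and 1 lower (5.82% and 1.82% of all genes), and 0 passed the adjustment. Casq1 averaged 861 ± 131 FPKM in LLC and 1338 ± 269 FPKM in PBS (log2 difference -0.63, limma adjusted p = 0.531), and Mylk2, the kinase of skeletal myosin light chain, 356 ± 53.3 FPKM in LLC and 257 ± 40.4 FPKM in PBS (0.47, adjusted p = 0.613). For Casq1 and for Mylk2 the groups did not overlap, nor did they for Pvalb. Of the 14 genes, 1 was thus higher and 2 were lower without overlap, against 9.5% and 3.94% of all genes. Pvalb averaged 5078 ± 450 FPKM in LLC and 6861 ± 1540 FPKM in PBS (-0.41, adjusted p = 0.798). No common direction ran through the fast list.

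**Figure D3:**
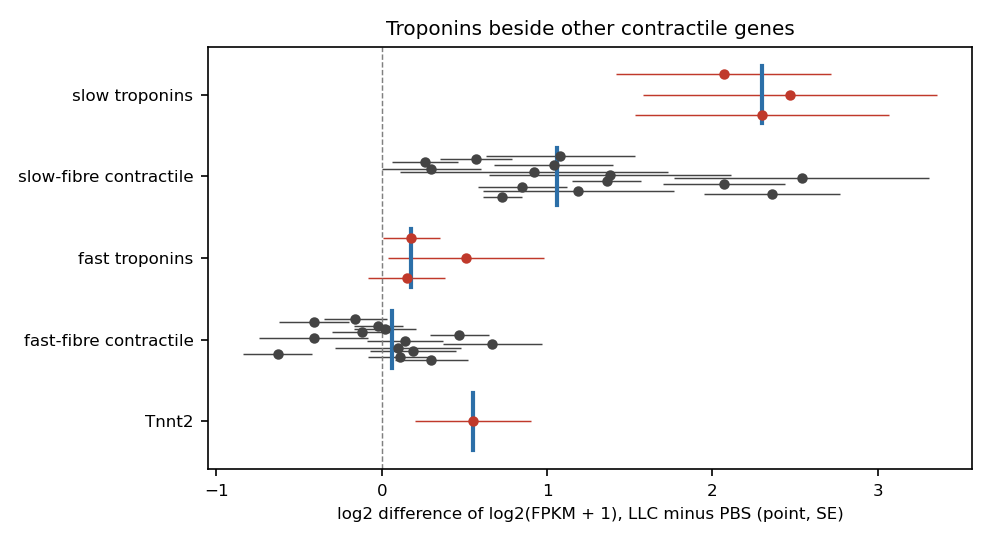
Log2 difference of log2(FPKM + 1), LLC minus PBS, with its SE for each troponin (red) and each other gene of the slow-fibre and fast-fibre lists (grey), 3 libraries per group; vertical blue bars are medians. The slow troponins lie between 2.07 and 2.47, beyond most genes of the slow-fibre list (median 1.06), and the fast troponins between 0.15 and 0.51.

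Among 14 tested genes of the thin filament that carries troponin, 9 were above and 5 below 0 (median log2 difference 0.09), 3 had an unadjusted p under 0.05 and were higher in LLC (5.82% of all genes), none was lower at that p (1.82% of all genes), and 0 passed the adjustment. Tpm3, the tropomyosin of slow fibres, had 174, 120.0 and 59.3 FPKM in LLC muscle 1 to 3, against 74.9, 39.3 and 42.9 FPKM in PBS muscle 1 to 3 (log2 difference 1.08, limma adjusted p = 0.668), again with PBS muscle 1 above LLC muscle 3. Tpm2, β-tropomyosin, averaged 1631 ± 66.3 FPKM in LLC and 1254 ± 216 FPKM in PBS with no overlap (0.39, adjusted p = 0.696). Of the 14 genes, 4 were higher and 0 lower without overlap, against 9.5% and 3.94% of all genes. The lists share members, with Lmod2 and Tpm3 also on the slow-fibre list and Tpm1 also on the fast-fibre list. Xirp1, an actin-binding repeat protein of damaged and remodelled muscle, averaged 32.9 ± 14.1 FPKM in LLC and 12.0 ± 4.24 FPKM in PBS (1.33, adjusted p = 0.504).

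Of 13 genes of embryonic, regenerating or denervated muscle, 9 were tested, with 5 above and 4 below 0, 1 higher at an unadjusted p under 0.05 (5.82% of all genes) and 0 passing the adjustment (median log2 difference 0.18). Chrna1, the acetylcholine receptor α-subunit, averaged 5.28 ± 1.16 FPKM in LLC and 2.94 ± 0.734 FPKM in PBS (0.67, limma adjusted p = 0.517). Of 21 tested regulators of fibre type, 15 were above and 6 below 0 (median 0.08), 2 had an unadjusted p under 0.05, both higher (5.82% of all genes), and 0 passed the adjustment. Vgll2, a cofactor of TEAD factors that favours slow fibres in mice, averaged 31.8 ± 2.36 FPKM in LLC and 22.9 ± 1.21 FPKM in PBS (0.46, adjusted p = 0.353). Tead4, a factor of the MCAT-binding family, averaged 1.80 ± 0.257 FPKM in LLC and 1.08 ± 0.284 FPKM in PBS (0.44, adjusted p = 0.613).

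The genes whose profile over the 6 libraries was most like that of the slow trio, among 5304 genes averaging 10 FPKM or more, were Myh7 (Pearson's r = 0.995), Mhrt (0.986), Myoz2 (0.982), Casq2 (0.972) and Myl2 (0.970). Mhrt overlaps Myh7 on the other strand, so reads of these genes cannot be told apart where they overlap. Myl2, the slow and cardiac regulatory myosin light chain, had 224, 146 and 67.5 FPKM in LLC muscle 1 to 3, against 134.6, 27.9 and 31.9 FPKM in PBS muscle 1 to 3. For the fast trio the nearest profiles were those of 2810004N23Rik (0.993), Park7 (0.985), Ddx5 (0.984), Ddx6 (0.983) and Washc2 (0.983), none of them on the fast-fibre list, and each was lowest in PBS muscle 1. For Tnnt2 they included Polr2k (0.978), Brap (0.970), Nfkbib (0.970) and Elovl5 (0.969). With 6 libraries and 5304 genes searched, these likenesses are descriptions.

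In the C2C12 cultures, open chromatin was found at the members in 8 peaks, of which Tnnt2 held 4, Tnnt3 2, Tnni1 1 and Tnni2 1, while no peak was annotated to Tnnt1, Tnnc1 or Tnnc2. The nearest peaks to those genes were annotated to neighbours. They were the Ppp1r12c promoter beside Tnnt1, intron peaks of Nisch beside Tnnc1, the closer centred at -2141 bp from the Tnnc1 start, and the Ube2c and Snx21 promoters on either side of Tnnc2. Of the myotube marker genes, Des held 3 peaks, Myod1 2 and Myog 1, and Ckm held no peak. Values are tags per peak scaled by the authors to 10 M tags per library.

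The share of read ends in peaks was 12.0% to 13.5% in the C26 libraries and 27.0%, 13.1% and 17.9% in control medium 1 to 3. Control medium 1 thus stood apart, while control medium 2 lay within the range of the C26 libraries. The median log2 difference of all peaks, C26 minus control, was -0.54 on the deposited scale and -0.02 after median-of-ratios scaling, so both scales are given. On the deposited scale limma called 428 of 37358 peaks higher (1.15%) and 704 lower (1.88%) after C26 medium, and 0 of the 8 troponin peaks, of which 4 had an unadjusted p under 0.05, all lower (26.6% of all peaks were lower at that p, and 2.99% higher). After scaling it called 6376 higher (17.1%) and 4755 lower (12.7%), and of the 8 troponin peaks 2 higher and 1 lower. At an unadjusted p under 0.05 these were 2 higher and 2 lower, where 21.4% of all peaks were higher and 18.8% lower. Counts of 2 and 1 among 8 peaks are near these shares.

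The peak at -4681 bp from the annotated Tnni1 start (chr1:135794476-135795004, intergenic in the annotation) was called in all 3 C26 and all 3 control peak lists, which the authors made per library. It lies before the transcript used here but within the RefSeq bounds of the whole gene (chr1:135783033-135810989). Its signal was 32.4, 35.8 and 40.9 after C26 medium, against 39.3, 31.4 and 30.6 in control medium, which overlap (log2 difference 0.11, limma adjusted p = 0.852). After scaling it was 38.5, 45.5 and 45.9 after C26 medium, against 21.8, 36.8 and 26.3 in control medium, with no overlap and a log2 difference of 0.62 (SE 0.16, adjusted p = 0.00226). Leaving out control medium 1 as well, the scaled difference was 0.46 (adjusted p = 0.0389). The C26 libraries were thus above the control libraries only relative to the other peaks of each library.

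The peak at -985 bp from the annotated Tnnt3 start (chr7:142497644-142498059, promoter class in the annotation) was in 0 of 3 C26 and 3 of 3 control peak lists. Its signal was 6.63, 11.1 and 10.4 after C26 medium, against 29.9, 18.2 and 24.7 in control medium, from 17 to 38 read ends after C26 medium and 50 to 67 in control medium. The groups did not overlap on the deposited scale (log2 difference -1.29, SE 0.43, limma adjusted p = 0.0681). On that scale 34% of all peaks were lower without overlap and 3.24% higher. After scaling the groups also did not overlap, at 7.88, 14.2 and 11.7 after C26 medium, against 16.6, 21.4 and 21.2 in control medium, and the difference of -0.78 passed the threshold (adjusted p = 0.0154; edgeR -0.78, adjusted p = 0.0181). The peak over the Tnnt3 start itself (chr7:142498559-142499176) had 13.7, 14.2 and 11.5 after C26 medium, against 20.1, 12.2 and 15.8 in control medium (log2 difference -0.25, adjusted p = 0.683; 0.26 after scaling, adjusted p = 0.472). After scaling, 19.4% of all peaks were lower without overlap and 21.7% higher. Both Tnnt3 peaks also lie within Prr33 on the other strand (chr7:142491080-142506771). The difference between the Tnnt3 peaks was not tested.

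The peak at -1087 bp from the Tnni2 start (chr7:142440494-142440965), annotated as the end of a neighbouring transcript, had 15.2, 16.3 and 23.1 after C26 medium, against 43.3, 25.3 and 33.1 in control medium. The groups did not overlap on this scale and did after scaling (log2 difference -0.85, limma adjusted p = 0.148, and -0.34, adjusted p = 0.175, after scaling).

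Tnnt2 had peaks in intron 3 (chr1:135844511-135844802) and intron 6 (chr1:135847216-135847545) of the annotated transcript and at its end (chr1:135852210-135852615). That transcript starts at chr1:135840861, after the start of the RefSeq bounds of the whole gene (chr1:135836315-135852268). Distances and intron numbers for Tnnt2 therefore refer to that transcript. A further peak annotated to Tnnt2 was intergenic, beyond the end of the gene and 21460 bp after the start (chr1:135862013-135862629). The last was the strongest troponin peak, at 69.1, 63.2 and 72.0 after C26 medium, against 153, 78.0 and 100.3 in control medium (log2 difference -0.64, limma adjusted p = 0.193). On this scale the groups did not overlap, nor did they after scaling, where the peak averaged 81.1 ± 0.896 after C26 medium and 87.4 ± 3.59 in control medium (-0.11, adjusted p = 0.441). The peak at the transcript end had 21.5, 11.8 and 18.7 after C26 medium, against 25.02, 6.08 and 15.3 in control medium (0.30, adjusted p = 0.607). After scaling it was 25.5, 15.0 and 20.9 after C26 medium, against 13.8, 7.13 and 13.2 in control medium, and passed the threshold at 0.82 (adjusted p = 0.0144), from 18 to 68 read ends per library. The intron peaks had log2 differences of -1.02 (adjusted p = 0.1204) and -0.85 (adjusted p = 0.167), and -0.51 (adjusted p = 0.118) and -0.35 (adjusted p = 0.322) after scaling. The Tnnt2 peaks thus did not share a direction after scaling.

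**Figure D4:**
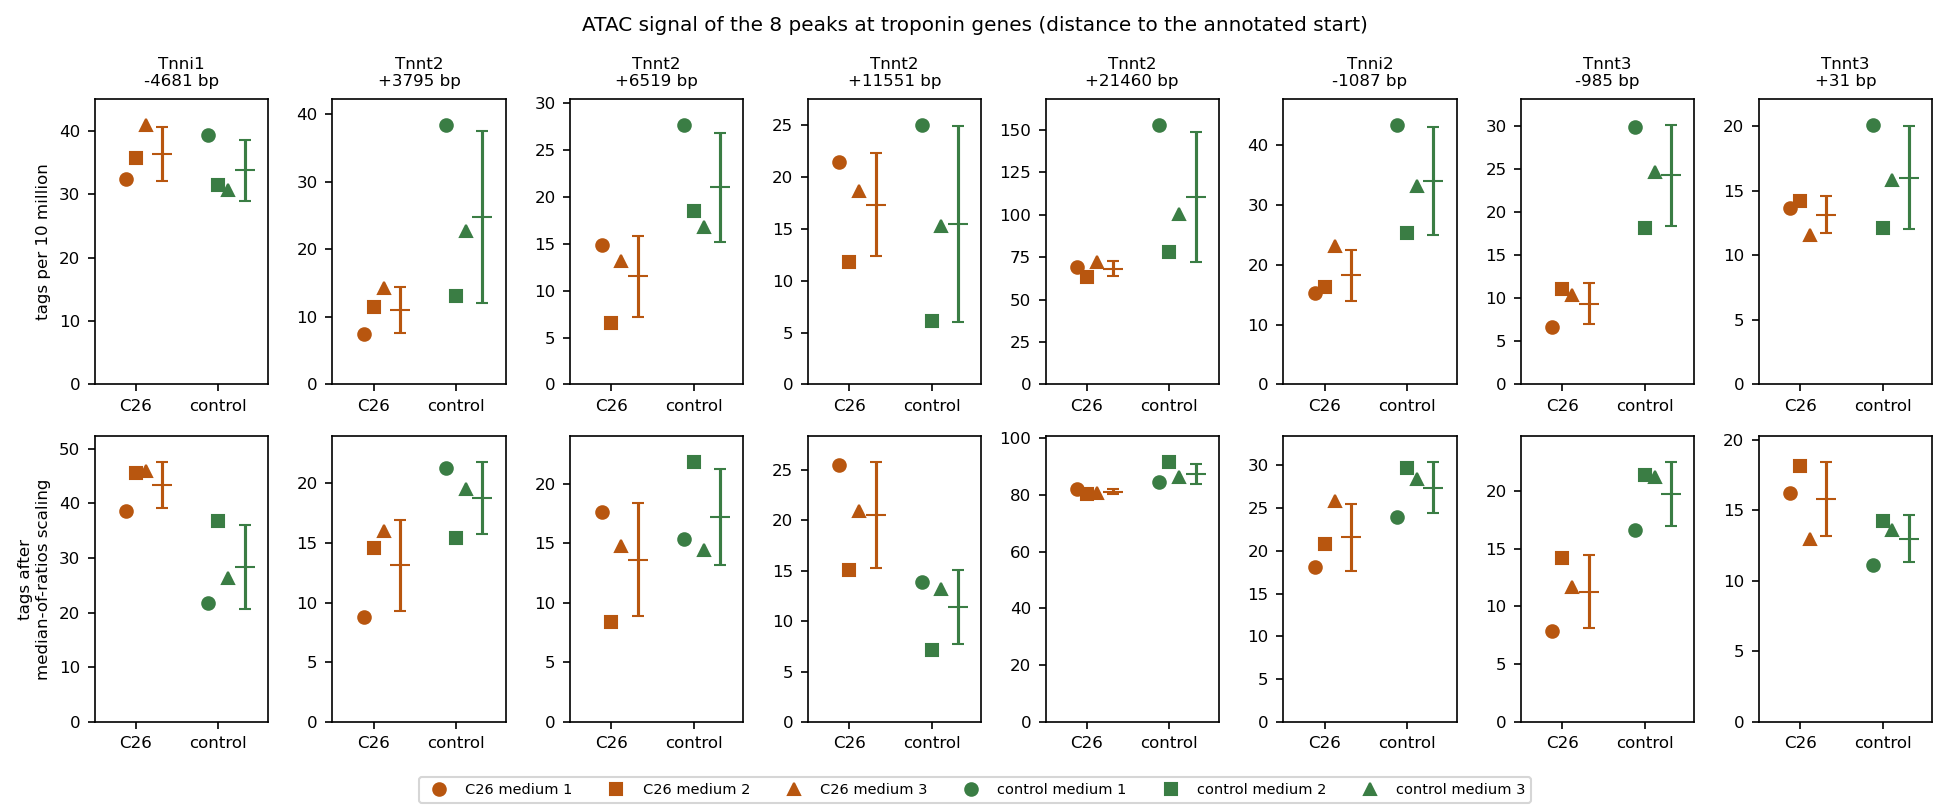
ATAC signal of the 8 peaks at troponin genes in 3 C26 medium and 3 control medium libraries, as deposited (upper row, tags per 10 M) and after median-of-ratios scaling (lower row), linear axes from 0, with mean and SD. Control medium 1 (green circle) is the highest library in 7 of the 8 panels of the upper row; the Tnnt3 peak at -985 bp is lower after C26 medium in both rows.

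Peaks at the other thin filament genes were read beside these. Of 39, 1 was called higher and 0 lower on the deposited scale (limma, median log2 difference -0.37), and 13 higher and 2 lower after scaling (median 0.13), where 17.1% of all peaks were higher and 12.7% lower after scaling. Neb, which encodes the thin filament ruler nebulin, held 4 of them, and all 4 were higher after scaling. The Neb peak at -33808 bp from the start (chr2:52372286-52372927) averaged 27.0 ± 7.69 after C26 medium and 8.87 ± 3.70 in control medium (1.54, adjusted p = 0.0211, and 2.04, adjusted p = 4.58e-09, after scaling). The Tpm1 promoter, of a tropomyosin used by fast fibres, averaged 51.4 ± 4.34 after C26 medium and 101 ± 35.5 in control medium (-0.91, adjusted p = 0.105, and -0.39, adjusted p = 0.00407, after scaling). Of 25 peaks at genes of the slow-fibre list 0 were called on the deposited scale, and 3 were higher and 2 lower after scaling. Of 23 at genes of the fast-fibre list 0 were called on the deposited scale, and of 22 tested after scaling 3 were higher and 5 lower. All peaks tested, for comparison, were called higher in 1.15% and lower in 1.88% of cases as deposited, and in 17.1% and 12.7% after scaling. Peaks at genes of embryonic, regenerating or denervated muscle numbered 60, of which 0 were higher and 4 lower, and 6 higher and 15 lower after scaling. Those at fibre type regulators numbered 103, of which 2 were higher and 0 lower, and 25 higher and 12 lower after scaling. The muscle RNA and the C2C12 chromatin come from different tumours, tissues and times, and no test joins them.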

How the data were processed

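RNA-seq of 6 muscle libraries and ATAC-seq of 6 C2C12 libraries were analysed, with groups taken from the treatment labels. Per the file headers, the authors made the RNA values as FPKM with HOMER from exons of RefSeq transcripts in mm10, counting both strands and keeping 1 transcript per gene. The ATAC values were deposited as signal, tags per merged peak scaled to 10 M tags, per the file headers. The submitters' processing notes also name HISAT2, Bowtie2, MACS2 and DESeq2; the sources used here give neither versions nor settings. Steps in the deposited values gave back whole read ends, each worth 0.5 tag, for 100% of the values checked (tolerance 0.1 for RNA and 0.2 for ATAC), and these recovered read counts entered only the edgeR alternative. Within each group no library was a copy of another, and libraries of different groups were not compared in this check.

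The log2 of the deposited values plus a pseudocount of 1 was tested with limma 3.58.1 (lmFit, eBayes with trend, two-sided) in R 4.3.3 over the 12981 of 20194 genes averaging 1 FPKM or more and the 37358 of 38244 peaks averaging a signal of 5 or more. P-values were adjusted over the whole table after Benjamini and Hochberg, and 0.05 was the threshold. The fold of low genes is understated on this scale. edgeR 4.0.16 (quasi-likelihood) was the second tool. Median-of-ratios scaling of the ATAC signal was added because its median change was not 0. The pipeline was tested on simulated data. Slow shares were described without a test. Plots were drawn with matplotlib 3.10.9.

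The members and all lists were chosen with earlier results of these data known. Named are all 7 genes, all 8 peaks, Tnni3, the 5 genes with the highest Pearson's r to each profile (1 of them is not reported here), and up to 6 genes of each list with the smallest limma p. The lists are slow-fibre contractile, fast-fibre contractile, other thin filament, embryonic or denervated muscle and fibre type regulators, besides cell type markers. Other pseudocounts, filters, scalings and left-out libraries were tried as alternatives.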

Additional observations from a re-analysis of the deposited data

How the results depend on the processing

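Over the alternatives run, 114 of the values for the 7 genes kept their direction and their side of the threshold, and 4 turned. These were Tnni2, at -0.03 without PBS muscle 1 and -0.09 without PBS muscle 1 and LLC muscle 3 (log2 differences), and Tnnc2, at -0.06 and -0.10. Leaving out 1 library gave -0.03 to 0.79 for Tnni2 and -0.06 to 0.27 for Tnnc2. Genes called numbered 0, and 1 with a mean of at least 5 FPKM and with median-of-ratios, quantile or TPM scaling (Grrp1 each time, named after its values were seen); leaving out 1 library gave 0 in each case. The slow share differed, LLC minus PBS, by 0.451 to 1.22 percentage points for troponin T (0.856 with all libraries), 0.057 to 0.896 for troponin I (0.340) and 0.616 to 1.40 for troponin C (0.992) when 1 library was left out. ATAC peaks called numbered 1132 (428 higher, 704 lower) on the deposited scale, 471 with a mean signal of at least 20, 2602 without the trend, 11131 after median-of-ratios scaling (6376 higher, 4755 lower), 10999 after quantile normalization (5604 higher, 5395 lower), 11354 with edgeR (6571 higher, 4783 lower) and 9471 after median-of-ratios scaling without control medium 1. Leaving out 1 library gave 123 (95 higher, 28 lower, without C26 medium 1) to 20607 (751 higher, 19856 lower, without control medium 2), with 4565 (1954 higher, 2611 lower) without control medium 1. Of the values for the 8 peaks, 98 kept their direction and side, 20 passed the threshold only in the alternative and 5 turned. The Tnnt2 peak at the transcript end was at -0.21 without control medium 2 and 0.73 without control medium 1. The peak at the Tnnt3 start was at 0.26 after median-of-ratios scaling, 0.10 after quantile normalization, 0.28 with edgeR and 0.15 after scaling without control medium 1. The cause of these changes was not tested. TPM scaling, the pair of muscle libraries left out together and scaling without control medium 1 were chosen after seeing the data.

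Same-numbered libraries did not all deviate alike (Pearson's r of -0.091, 0.599 and -0.599 for RNA and -0.011, 0.008 and -0.017 for ATAC). Differently numbered RNA libraries gave -0.583 to 0.635. With 3 libraries per group this check cannot exclude a pairing, and the main fits used none. With the replicate number as a block, 0 genes and 1071 peaks (415 higher, 656 lower) were called.

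With 3 libraries per group, 1 control library apart in each assay and no name for the muscle, fibre composition cannot be told apart from RNA level per fibre. The Tnnt2 RNA and the weaker peaks rest on few read ends, with 18 in the lowest library of Tnnt2 and 17 in that of the peak before Tnnt3.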

Other observations

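Pairs of troponin genes lie close together on chromosomes 1 and 7. On chromosome 1 slow troponin I (Tnni1) and cardiac troponin T (Tnnt2) flank Lad1, at gaps of 7609 and 2974 bp, and on chromosome 7 fast troponin I (Tnni2) and fast troponin T (Tnnt3) flank Lsp1, at gaps of 13813 and 3903 bp. Pearson's r over the 6 muscle libraries was 0.197 for Tnni1 and Tnnt2 and 0.709 for Tnni2 and Tnnt3, against 0.969 to 0.988 within the slow trio, whose genes lie on chromosomes 1, 7 and 14.

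Within the LLC group the slow troponins were ordered alike, with LLC muscle 1 highest and LLC muscle 3 lowest for Tnnt1, Tnni1 and Tnnc1, whereas the 3 fast genes were all lowest in LLC muscle 1 and highest in LLC muscle 3. Slow troponins summed to 364, 262 and 114 FPKM in LLC muscle 1 to 3, against 129.6, 26.1 and 25.7 FPKM in PBS muscle 1 to 3. Fast troponins summed to 19075, 21026 and 22712 FPKM in LLC muscle 1 to 3, against 13210, 21129 and 20015 FPKM in PBS muscle 1 to 3.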
